A study of Mus musculus with 12 samples.

Results

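The 36 genes described here regulate chromatin and transcription, and variants in most of them are known causes of human neurodevelopmental disorders. They were chosen by name for their function, with earlier results of these data known. They were looked up by symbol among the 46078 genes of the count tables, and each of the 36 symbols matched 1 gene. RNA-seq was performed on brains of embryos at E15.5, 3 WT males, 3 Nsd2 KO males, 3 WT females and 3 Nsd2 KO females, which gave 12 libraries, and all mice shared the C57BL/6 background. The KO allele lacks the whole coding region of Nsd2, removed with CRISPR/Cas9 in the germ line, so the loss is constitutive and is not limited to the brain. The tissue was bulk brain, in which fewer cells of a type and less RNA per cell cannot be told apart. The labels do not say which embryos shared a litter, so p-values measure only the spread between these samples. Levels are given in CPM, counts scaled to a common library size with TMM factors, and changes as the log2 ratio of KO to WT, each with its SE (standard error). A gene was called where the quasi-likelihood test of edgeR gave a p under 0.05 after Benjamini-Hochberg adjustment over all genes tested, and percentages of all genes leave out Nsd2 itself.

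The proteins encoded by these genes act at successive steps of gene control. Remodelling complexes such as BAF and the CHD enzymes use ATP to move nucleosomes, methyltransferases and acetyltransferases write marks on histone tails, demethylases and deacetylases remove them, and DNA-binding factors and co-regulators link these enzymes to promoters and enhancers. In the embryonic brain they are known to act in neural progenitors and in newborn neurons, and loss of 1 copy of many of them is sufficient to disturb brain development in humans. Nsd2 itself encodes a methyltransferase that dimethylates lysine 36 of histone H3.

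Library totals ranged from 40398665 to 59304196 counts. Nsd2, named Whsc1 in the tables, was at 351 to 407 CPM in the 6 WT libraries and at 0.909 to 2.67 CPM in the 6 KO libraries. The 6 neuronal markers used to check the tissue (Tubb3, Dcx, Map2, Snap25, Syt1 and Stmn2) were all expressed and summed to 5282 to 5911 CPM in the 12 libraries. Hoxa5, a gene of the hindbrain and spinal cord, was under 1 CPM in 6 libraries (WT female 1 and 2, KO female 1, WT male 1, and KO male 1 and 3) and between 13.2 and 53.9 CPM in the other 6. The first 6 are called the Hoxa5-low libraries in what follows, and 3 of them are WT and 3 KO. They are unevenly spread over the groups, with 1 WT male, 2 KO males, 2 WT females and 1 KO female.

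The 36 genes lie on 16 chromosomes of GRCm38, with at most 4 on any of them, and encode long transcripts. Their exons, merged over all annotated transcripts, covered 4.09 to 27.4 kb with a median of 13.6 kb, against a median of 4.38 kb over the 15420 protein-coding genes tested. In WT brains the level per kb of exon was highest for 3 genes of chromatin remodellers, Smarca4 (83.8 CPM per kb), Smarcc2 (81.2 CPM per kb) and Chd3 (77.0 CPM per kb). The SDs over the 6 WT libraries were 9.37, 8.98 and 10.7 CPM per kb, so the order of these 3 lies within their spread. Next came Adnp (51.9 CPM per kb) and Tcf20 (48.6 CPM per kb). The lowest were Hdac4 (4.41 CPM per kb), Mbd5 (2.93 CPM per kb) and Mkx (0.274 CPM per kb), and the other 28 lay between 6.30 and 34.2 CPM per kb. Among paralogs, Arid1a was above Arid1b (34.2 and 17.4 CPM per kb) and Crebbp above Ep300 (22.1 and 13.1 CPM per kb). Of the 36 genes, 30 overlap another annotated gene of any kind. Among them 17 overlap an annotated antisense gene and 7 another protein-coding gene (Adnp, Ankrd11, Ctcf, Foxp1, Kmt2e, Mbd5 and Trip12). The libraries were made with a directional kit, but the strand setting of the counting is not stated, so reads of overlapping genes cannot be told apart there.

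Promoter windows of the 250 bases before the transcription start were found in RefSeq (GRCm38.p6) for 24 of the 36 genes, in 28 windows. Their median GC content was 69.2%, against 52.4% over all 32851 windows of the same length. All windows means those of 27025 genes, not restricted to genes tested here. The contrasts with them are therefore not contrasts with other expressed genes. A CpG content over 0.6 of that expected from the base composition was found in 75% of them and in 34.0% of all windows. The GC box GGGCGGG, the letters bound by SP and KLF factors, was present on either strand in 15 of 28 windows (53.6%) and in 23.4% of all windows. The other motifs searched on both strands were the NRF1 core GCGCATG (2 windows, 3.24% of all), the ETS motif CCGGAAG (1 window, 6.91% of all), the TATA box TATAAA (1 window, 12.4% of all), the E-box CAGCTG (4 windows, 13.0% of all) and the CCAAT box (6 windows, 33.8% of all). A match describes the letters in this window, and the motifs were not compared with any binding data. The windows of 3 genes whose values are given in full further on are printed 5′ to 3′ on the strand of the gene, with the GC box or its reverse complement in capitals. They lie at chr1:134559928-134560177 (plus strand), chr9:44881290-44881539 (minus strand) and chr9:21615919-21616168 (plus strand). Kdm5b was the gene with the smallest adjusted p among the higher values in males, Kmt2a the gene with the widest spread within groups, and Smarca4 the first in level per kb.
Kdm5b promoter: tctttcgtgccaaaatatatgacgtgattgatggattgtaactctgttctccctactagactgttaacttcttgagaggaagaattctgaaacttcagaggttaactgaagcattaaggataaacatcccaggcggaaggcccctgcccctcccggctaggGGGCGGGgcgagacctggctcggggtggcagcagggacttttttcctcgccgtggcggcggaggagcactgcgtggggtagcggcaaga
Kmt2a promoter: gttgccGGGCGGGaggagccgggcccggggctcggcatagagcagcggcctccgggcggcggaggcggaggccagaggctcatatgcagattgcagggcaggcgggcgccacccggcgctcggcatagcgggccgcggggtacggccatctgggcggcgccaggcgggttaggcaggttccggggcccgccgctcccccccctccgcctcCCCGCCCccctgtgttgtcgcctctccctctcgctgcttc
Smarca4 promoter: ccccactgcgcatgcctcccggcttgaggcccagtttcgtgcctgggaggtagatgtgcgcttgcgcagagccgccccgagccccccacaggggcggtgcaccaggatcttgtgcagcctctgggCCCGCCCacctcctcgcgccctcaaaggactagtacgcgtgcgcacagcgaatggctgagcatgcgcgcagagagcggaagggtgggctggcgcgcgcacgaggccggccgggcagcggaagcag

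Mkx was the only one of the 36 genes called in any comparison, and it fell in KO brains over both sexes. Mkx encodes Mohawk, a homeodomain transcription factor best known for its role in tendon, and lies on chromosome 18 from 6934518 to 7004780 of GRCm38. In males it was at 0.909, 1.05 and 1.20 CPM in WT and 0.481, 0.446 and 0.463 CPM in KO libraries. In females it was at 1.14, 1.01 and 1.41 CPM in WT and 0.430, 0.659 and 0.578 CPM in KO libraries. Every KO library was below every WT library in both sexes, as were 246 of all genes tested (1.24%). In the fit over both sexes, which had sex as a term, its log2 change was -1.14 (SE 0.165, adjusted p = 0.00236 in edgeR). That fit called 1.52% of all genes lower and 0.374% higher, and of the 36 genes 1 lower and 0 higher. In males alone the change was -1.19 (SE 0.232, adjusted p = 0.0931 in edgeR) and in females alone -1.10 (SE 0.295, adjusted p = 0.465 in edgeR), and neither was called. The difference between the sexes was 0.089 (95% interval -0.65 to 0.82, adjusted p = 0.983 for the interaction term in edgeR). These levels rest on few reads, 41 to 84 per WT library and 19 to 31 per KO library. Among the 6 Hoxa5-low libraries alone the change was -1.12 and the call was lost (adjusted p = 0.316 in edgeR). Its direction was the same there. The 8 markers of meninges and mesenchyme that were looked up beside it (Col1a1, Col1a2, Col3a1, Dcn, Lum, Foxc1, Twist1 and Pdgfrb) summed to 248 to 1301 CPM in WT and 316 to 587 CPM in KO males and to 362 to 906 CPM in WT and 369.9 to 679.5 CPM in KO females. The 4 tendon markers Scx, Tnmd, Fmod and Thbs4 summed to 8.23 to 19.4 CPM in WT and 8.44 to 18.9 CPM in KO males and to 9.38 to 18.6 CPM in WT and 6.11 to 13.2 CPM in KO females. None of these 12 genes was called over both sexes and the ranges of the genotypes overlap in each sex. The median log2 change of the 8 was -0.33 over both sexes, -0.29 in males and -0.30 in females. For the 4 tendon markers it was -0.26 over both sexes, 0.073 in males and -0.56 in females. Both lists were chosen after the values of Mkx were seen, and their part in its difference was not tested.

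**Figure D1:**
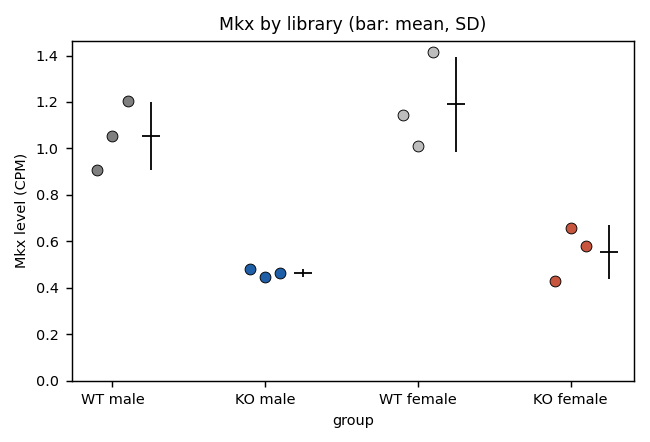
Level of Mkx in CPM (vertical axis, starting at 0) in each library of the 4 groups, with the mean and SD of 3 libraries beside the points. All 6 KO libraries lie at or under 0.659 CPM and all 6 WT libraries at or over 0.909 CPM.

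The other 35 genes differed little between the genotypes, and their small differences pointed up in males and mostly down in females. In males all 35 changes were above 0, up to 0.35, and the median of the 36 was 0.18, against -0.0051 over the 18672 genes tested. For 16 of the 36 every KO male library was above every WT male library, where 8.62% of all genes tested were, and for Mkx every one was below (8.37% of all genes). In females 28 of the 36 changes were below 0, the median was -0.12 against 0.0073 over 18710 genes, and Mkx alone had no overlap between the genotypes (6.19% of all genes were lower and 7.52% higher without overlap). In all, 27 genes were above 0 in males and below 0 in females, 8 were above 0 in both and 1 was below 0 in both. None of these differences was called by edgeR in a single sex, where 0.123% of all genes were called higher and 0.337% lower in males, and 0.0107% and 0.00535% in females. Before adjustment p was under 0.05 for 20 genes with higher and 1 with a lower level in KO males (5.02% and 6.93% of all genes), for 1 with a lower and 0 with a higher level in KO females (3.89% and 3.59% of all genes), and for 1 lower and 0 higher with the sexes combined (7.9% and 5.8%). DESeq2 called 1 of the 36 in males, Kdm5b, which was higher, while it called 0.709% of the genes it adjusted higher and 2.1% lower. It called none of the 36 in females (0.317% of genes higher and 0.817% lower). With the sexes combined the median change of the 36 genes was 0.037, against 0.0022 over 19768 genes, and the median half-width of their 95% intervals was 0.21.

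The difference between the sexes, tested by the interaction term, was called for none of the 36 genes by edgeR or by DESeq2, nor for any of all genes in edgeR (0%), and DESeq2 called 0.0152% of all genes lower and 0.0101% higher in females than in males. For 7 genes its unadjusted p was under 0.05, each with a lower change in females than in males: Arid1a, Arid1b, Smarca4, Smarcc2, Chd8, Kdm5b and Kdm6b. Over all genes 1.83% had such a p with a lower and 2.62% with a higher change in females. The median difference, females minus males, was -0.31 on the log2 scale over the 36 genes and 0.029 over all genes, with 33 of the 36 below 0. Kits and sequencers varied within the study and are not given per library. A batch that coincides with sex therefore cannot be told apart from sex. The contrast between the sexes also moved with the Hox genes. The Hox covariate was the mean log2 level of the Hox genes with a mean of at least 10 counts per library. With this covariate added the median was 0.089 in males and 0.044 in females, and 33 and 23 of the 36 were above 0. The median difference between the sexes was then -0.046. Without WT female 3 the median in females was -0.25, with 34 of the 36 below 0, and without WT female 2 it was -0.036, with 20 below 0. In males 34 or 35 of the 36 stayed above 0 without each library in turn.

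**Figure D2:**
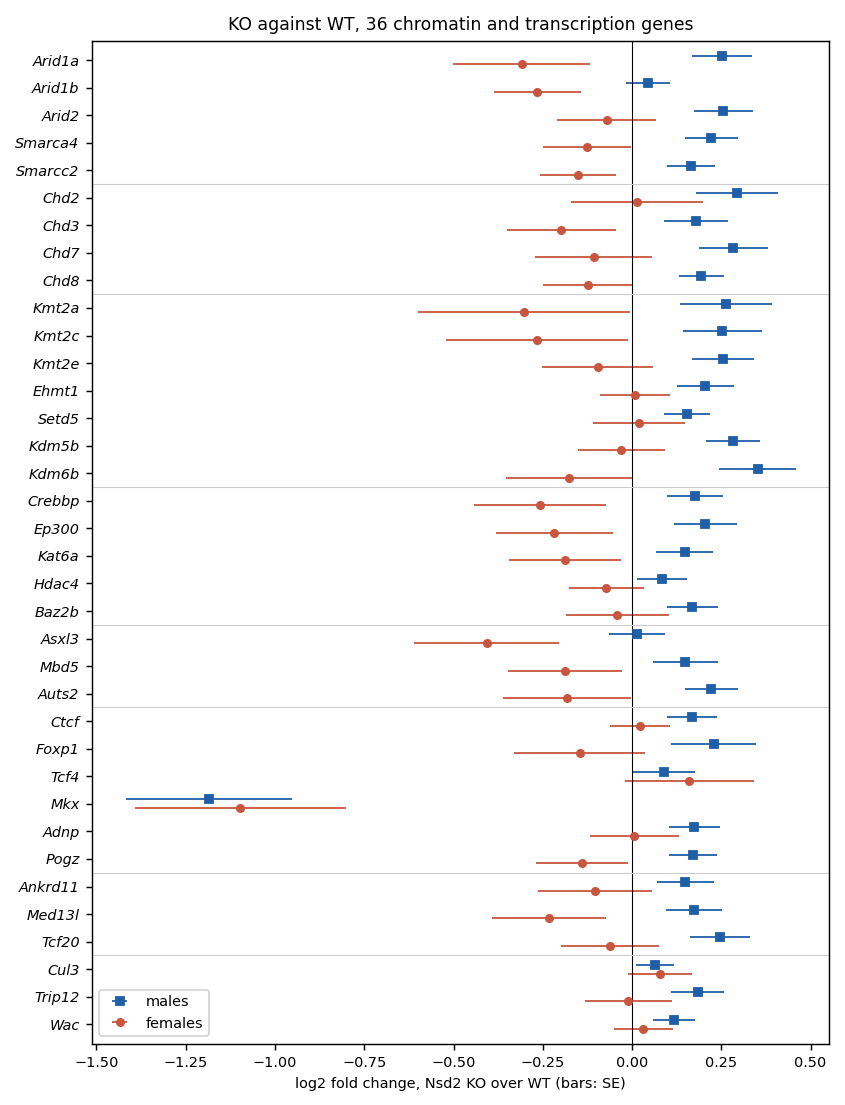
Log2 fold change of KO over WT (horizontal axis, bars show the SE) for each of the 36 genes (rows, grouped by role) in males (squares) and females (circles), 3 libraries per genotype and sex. All squares but that of Mkx lie above 0, most circles lie below 0, and Mkx lies at -1.19 in males and -1.10 in females.

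The 5 subunits of the BAF and PBAF remodellers had a median change of 0.22 in males and -0.15 in females, and none was called. Smarca4, which encodes the ATPase BRG1, was at 534, 466 and 505 CPM in WT males and 586, 552 and 619.7 CPM in KO males. In females it was at 599, 629.6 and 524 CPM in WT and 543, 481 and 584 CPM in KO libraries. The male groups do not overlap and the female groups do, and the changes were 0.22 in males (SE 0.0747) and -0.13 in females (SE 0.123). Arid1a, the DNA-binding subunit BAF250a, lay at 309 to 348 CPM in WT and 352 to 422 CPM in KO males, and at 503, 538 and 326 CPM in the 3 WT females against 337 to 386 CPM in KO females. WT female 1 and 2 were thus above all 10 other libraries for this gene, and WT female 3 was below every KO female. Its paralog Arid1b, the subunit altered in Coffin-Siris syndrome, had the smallest change of the 5 in males, with changes of 0.044 in males (SE 0.062) and -0.27 in females (SE 0.122). Arid2, a subunit of PBAF, had log2 changes of 0.26 in males (SE 0.0824) and -0.071 in females (SE 0.14), and the core scaffold Smarcc2 of 0.16 in males (SE 0.0673) and -0.15 in females (SE 0.107). For Smarcc2 the KO males were all above the WT males (435 to 477 against 391 to 432 CPM).

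The 4 CHD remodellers had medians of 0.24 in males and -0.12 in females. Chd8, an ATPase among the genes most often altered in autism, was at 180.2 to 199.9 CPM in WT and 209 to 226 CPM in KO males, without overlap, and at 192 to 249.7 CPM in WT and 196 to 220.4 CPM in KO females, with overlap. Its changes were 0.19 in males (SE 0.0632) and -0.12 in females (SE 0.127). Chd7, whose loss causes CHARGE syndrome, had log2 changes of 0.28 in males (SE 0.0974) and -0.11 in females (SE 0.164). The KO males lay at 124 to 146 CPM and the WT males at 96.8 to 122 CPM for this gene, without overlap. Chd3, a catalytic subunit of the NuRD complex, had the highest level per kb of the 4. It was at 593 ± 22.8 CPM in WT and 673 ± 75.9 CPM in KO males (SD, n = 3 per group) and its changes were 0.18 in males (SE 0.0893) and -0.20 in females (SE 0.153). Chd2, an ATPase linked to epileptic encephalopathy, had a log2 change of 0.29 in males (SE 0.116), where KO male 2 (82.5 CPM) lay within the WT range of 75.6 to 85.9 CPM, and 0.014 in females (SE 0.185).

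Among the 7 genes of histone methylation the median was 0.25 in males and -0.097 in females. Kmt2a and Kmt2c encode methyltransferases of lysine 4 of histone H3, and their levels varied most between libraries of the same group. Kmt2a was at 349, 352 and 157 CPM in WT females, where the first and second library were above all others and the third was the lowest of the 12, and at 242, 232 and 225 CPM in KO females. In males it was at 204, 203 and 176 CPM in WT and 274, 192 and 235 CPM in KO libraries, with overlap, and its changes were 0.26 in males (SE 0.128) and -0.30 in females (SE 0.296). Without WT female 3 Kmt2a was called lower in KO females (-0.60 on the log2 scale, SE 0.0723, adjusted p = 0.0459 in edgeR). The change was -0.14 without WT female 1, -0.11 without WT female 2 and 0.12 with the Hox covariate, where its direction turned, and it was called in none of these fits. Kmt2c was at 307, 329 and 160.1 CPM in WT females and 215 to 229 CPM in KO females, again with the third WT library as the lowest of the 12, and it had log2 changes of 0.25 in males (SE 0.11) and -0.27 in females (SE 0.255). Kmt2e, a related SET-domain protein, had log2 changes of 0.25 in males (SE 0.0875) and -0.097 in females (SE 0.155).

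Of the demethylases, Kdm5b removes methyl groups from lysine 4 and Kdm6b from lysine 27 of histone H3. Kdm5b was at 319, 287 and 270.1 CPM in WT males and 365, 339 and 363 CPM in KO males, without overlap. In females it was at 359.9, 349 and 297 CPM in WT and 327, 296 and 364 CPM in KO libraries, with overlap. The change in males was 0.28 (SE 0.0751, adjusted p = 0.22 in edgeR and 0.0297 in DESeq2), and in females -0.030 (SE 0.122). With the Hox covariate the change of Kdm5b in males was 0.17, and it was not called. Kdm6b had the highest log2 fold change of the 36 in males, 0.35 (SE 0.107, adjusted p = 0.28 in edgeR), from 189.9, 162 and 163 CPM in WT to 244, 188 and 226 CPM in KO males, where KO male 2 lay within the WT range. In females it was at 281, 308 and 198 CPM in WT and 237, 205 and 257 CPM in KO libraries (-0.18, SE 0.177). Ehmt1, the lysine 9 methyltransferase whose loss causes Kleefstra syndrome, and Setd5, a SET-domain protein linked to intellectual disability, had log2 fold changes near 0 in females (0.0082 and 0.020) and of 0.21 and 0.15 in males. The KO males lay above the WT males for Setd5 (194 to 217 against 184 to 193 CPM) and Kmt2e (263 to 329 against 239.9 to 260.1 CPM), while the ranges overlapped for Ehmt1 (146 to 168 against 126 to 146 CPM).

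The 5 genes of histone acetylation and its readers had medians of 0.17 in males and -0.19 in females, and all 5 were above 0 in males and below 0 in females. The paralogous acetyltransferases Crebbp and Ep300, which are mutated in Rubinstein-Taybi syndrome, had changes of 0.18 in males (SE 0.0786) and -0.26 in females (SE 0.185) for Crebbp and of 0.21 in males (SE 0.0874) and -0.22 in females (SE 0.164) for Ep300. Crebbp was at 359.7, 399 and 243 CPM in WT females and 265 to 299 CPM in KO females, and Ep300 at 236, 236 and 159 CPM in WT females and 169.6 to 192 CPM in KO females. For both genes the first and second WT female library were above every KO female and the third was below. Kat6a, an acetyltransferase of the MYST family, had log2 changes of 0.15 in males (SE 0.08) and -0.19 in females (SE 0.156). Hdac4, a class IIa deacetylase, had log2 changes of 0.084 in males (SE 0.0696) and -0.072 in females (SE 0.105), and Baz2b, a bromodomain protein, had log2 changes of 0.17 in males (SE 0.0703) and -0.042 in females (SE 0.144). Of the 5, Baz2b alone had no overlap in males, with 93.4 to 103 CPM in WT and 105 to 119.8 CPM in KO libraries.

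Asxl3, Mbd5 and Auts2 encode proteins that work with the Polycomb system, Asxl3 and Mbd5 with the BAP1 deubiquitinase and Auts2 with variant PRC1 complexes. Their median was 0.15 in males and -0.19 in females. Asxl3, mutated in Bainbridge-Ropers syndrome, was at 165, 155 and 94.2 CPM in WT females and 110.5, 101 and 102 CPM in KO females, where WT female 3 was below all KO libraries. Its log2 fold change in females was -0.41 (SE 0.203, adjusted p = 0.707 in edgeR), the lowest of the 36 after Mkx, and without WT female 3 it was called (-0.63, adjusted p = 0.0459 in edgeR). It was -0.26 without WT female 1, -0.31 without WT female 2 and -0.13 with the Hox covariate (adjusted p = 0.879 in edgeR), and was not called there. In males it was 0.014 (SE 0.0772), with 107 to 129.7 CPM in WT and 118 to 123 CPM in KO libraries. Auts2, which spans 1106 kb on chromosome 5, was at 277, 254 and 271 CPM in WT and 331, 285 and 321 CPM in KO males, without overlap, and its changes were 0.22 in males (SE 0.0746) and -0.18 in females (SE 0.18). Mbd5, a methyl-CpG-binding domain protein, had log2 changes of 0.15 in males (SE 0.0915) and -0.19 in females (SE 0.159).

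Among the DNA-binding factors, Tcf4, the basic helix-loop-helix factor of Pitt-Hopkins syndrome, was the gene with the highest log2 fold change in females. It was at 364, 552 and 402 CPM in WT and 565, 449 and 461 CPM in KO females and at 392 to 467 and 414 to 485 CPM in males, with overlap in both sexes, and its changes were 0.089 in males (SE 0.0877) and 0.16 in females (SE 0.18). For Tcf4 WT female 1 was the lowest of the 12 libraries, unlike for Kmt2a or Arid1a. Foxp1, a forkhead factor of cortical and striatal neurons, had log2 changes of 0.23 in males (SE 0.118) and -0.15 in females (SE 0.182) and ranged from 90.2 to 147 CPM over the 12 libraries. Ctcf, the zinc finger protein at the boundaries of chromatin loops, was steady, with 98.4 to 113 CPM in WT and 114 to 123 CPM in KO males and changes of 0.17 in males (SE 0.0698) and 0.023 in females (SE 0.0849). Adnp and Pogz, which bind heterochromatin protein HP1, had log2 changes of 0.17 and 0.17 in males and 0.0067 and -0.14 in females. For Pogz the KO males were all above the WT males (141 to 159 against 133 to 139.8 CPM), and for Adnp KO male 1 (269 CPM) lay within the WT range.

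The co-regulators had log2 fold changes of 0.25 (Tcf20), 0.17 (Med13l) and 0.15 (Ankrd11) in males and of -0.062, -0.23 and -0.10 in females. Tcf20, a nuclear protein related to Rai1, was at 413, 375 and 394 CPM in WT and 495, 415 and 494 CPM in KO males, and the groups do not overlap. Med13l, a subunit of the Mediator kinase module, was at 164 to 173 and 168 to 201 CPM in WT and KO males. Ankrd11, the gene of KBG syndrome, was at 165 to 180.3 and 173 to 209 CPM there, and both genes overlap between the genotypes. Of the 3 genes of the ubiquitin pathway, Cul3 and Wac varied less within groups than any other of the 36. Cul3, the scaffold of a ubiquitin ligase, had log2 changes of 0.065 in males (SE 0.0532) and 0.078 in females (SE 0.0884) and Wac, which acts in ubiquitination of histone H2B, of 0.12 in males (SE 0.0588) and 0.032 in females (SE 0.0827). Their SD within groups was 0.052 and 0.053 on the log2 scale. Although the differences were small, the KO males were all above the WT males for both genes (171 to 174 against 161 to 169 CPM for Cul3 and 163 to 177 against 152 to 159.8 CPM for Wac). The same held for the ubiquitin ligase Trip12 (317 to 352 against 273 to 314 CPM), which had log2 changes of 0.18 in males (SE 0.0736) and -0.011 in females (SE 0.122).

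The 36 genes moved together from library to library. Their counts summed to 0.966, 1.02 and 0.742% of the counts in WT females, 0.862, 0.747 and 0.872% in KO females, 0.794, 0.783 and 0.745% in WT males and 0.912, 0.792 and 0.895% in KO males. WT female 1 and 2 were the highest of the 12 libraries and WT female 3 was the lowest. On the log2 scale 34 of the 36 genes were above their mean over the 12 libraries in WT female 2, 34 in KO male 1 and 32 in KO male 3, but only 2 in WT female 3 and 3 in KO female 2. The median SD of the 36 genes among WT females was 0.26 on the log2 scale, against 0.21 over all genes tested, whereas in the other groups it was lower than that over all genes (0.089 and 0.16 in WT males, 0.11 and 0.13 in KO males, 0.10 and 0.16 in KO females). Kmt2a had the largest SD among WT females (0.67), followed by Kmt2c (0.57) and Asxl3 (0.44), and Wac the smallest (0.046). Across the 35 genes other than Mkx, this SD was larger for genes with more exon sequence (Spearman's rho 0.56 across genes, which share the same 3 libraries).

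**Figure D3:**
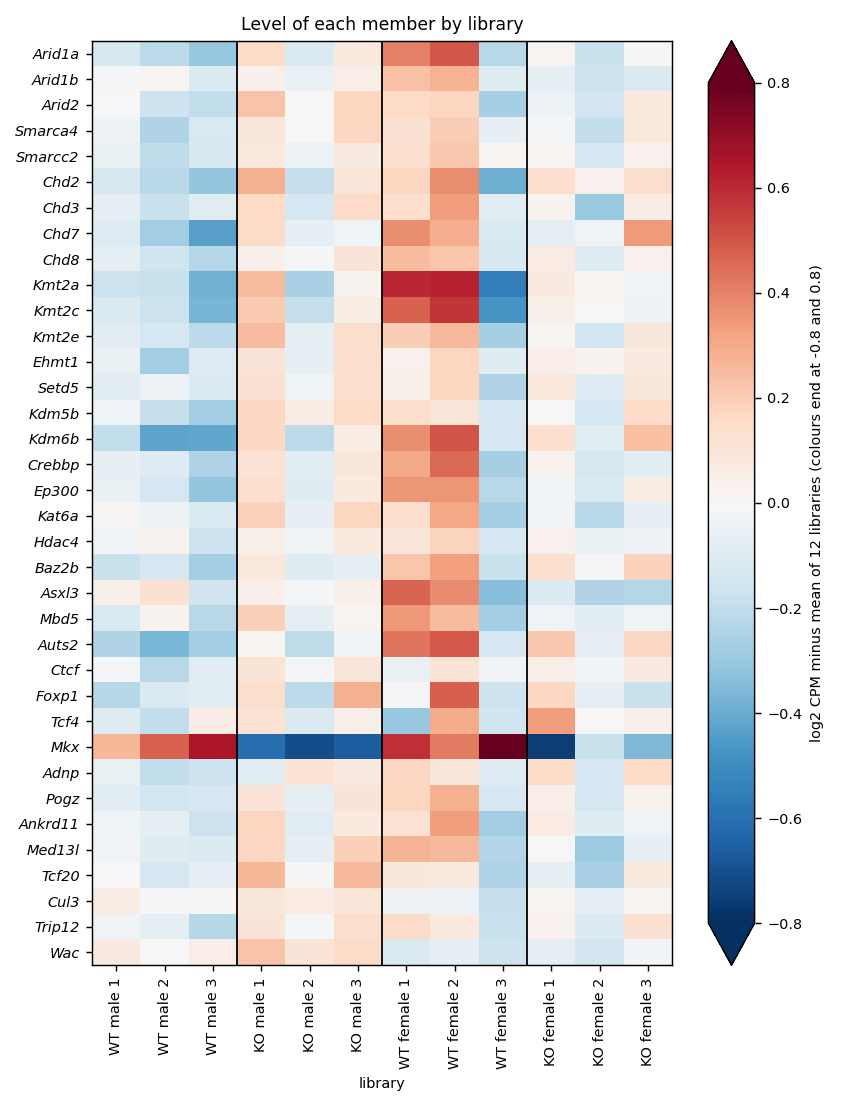
Log2 CPM of each of the 36 genes (rows, ordered by role) minus its mean over the 12 libraries (colour), by library (columns, 3 per group). Most rows are above their mean in WT female 1 and 2 and in KO male 1 and 3 and below it in WT female 3, KO female 2 and the WT males, while Mkx is high in the 6 WT and low in the 6 KO libraries.

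Other features of the libraries were set beside this pattern. The summed share was 0.794 to 1.02% in the 6 Hoxa5-low libraries and 0.742 to 0.872% in the other 6. The 5 erythroid markers (Hbb-bt, Hbb-bs, Hbb-y, Hba-a1 and Alas2) summed to 1908 to 2406 CPM in WT and 1362 to 1873 CPM in KO males, without overlap, and to 1045 to 1561 CPM in WT and 1336 to 2319 CPM in KO females. In males the erythroid sums were thus lower in the KO group, where most of the 36 genes were higher. Within WT males and within KO males, however, the libraries did not rank in the reverse order of the summed share. The 6 neuronal markers summed to 5686 to 5812 and 5772 to 5911 CPM in WT and KO males and to 5506 to 5872 and 5282 to 5494 CPM in WT and KO females, where they do not overlap. The 6 progenitor markers (Sox2, Pax6, Nes, Vim, Hes5 and Fabp7) summed to 1009.9 to 1149 and 1082 to 1135 CPM in males and 978 to 1172 and 1056 to 1207 CPM in females, with overlap in both. The 4 markers of the oligodendrocyte lineage (Olig1, Olig2, Sox10 and Pdgfra) summed to 98.4 to 153 and 75.2 to 88.9 CPM in WT and KO males, without overlap, and to 76.4 to 122 and 59.5 to 98.9 CPM in females. The sums of the markers of intermediate progenitors, microglia and endothelium overlapped between the genotypes in both sexes, and none of the markers was called in the fit over both sexes. Transcripts encoded by the mitochondrial genome took 2.46, 5.16 and 1.59% of the counts in WT females and 6.45, 7.10 and 2.23% in KO females. In males they took 2.29, 2.35 and 2.15% in WT and 2.97, 2.07 and 2.13% in KO libraries. The libraries ranked as by the summed share of the 36 genes in WT females and KO males. They ranked in the reverse order in KO females and in another order in WT males. Over all protein-coding genes the changes also differed with exon length. When the protein-coding genes were ranked by exon length and divided into 4 equal classes, 29 of the 36 fell in the longest class. The 3855 genes of that class had a median change of 0.042 in males and -0.049 in females, whereas the shortest class had -0.061 and 0.063. The share of genes above 0 in males was 59.9% in the longest and 32.1% in the shortest class. Among the 35 genes other than Mkx, exon length showed little relation to the change. Spearman's rho was 0.022 in males, -0.18 in females and -0.14 for the difference between the sexes. The part of these features in the differences of the 36 genes was not tested beyond the fit with the Hox genes as a covariate.

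**Figure D4:**
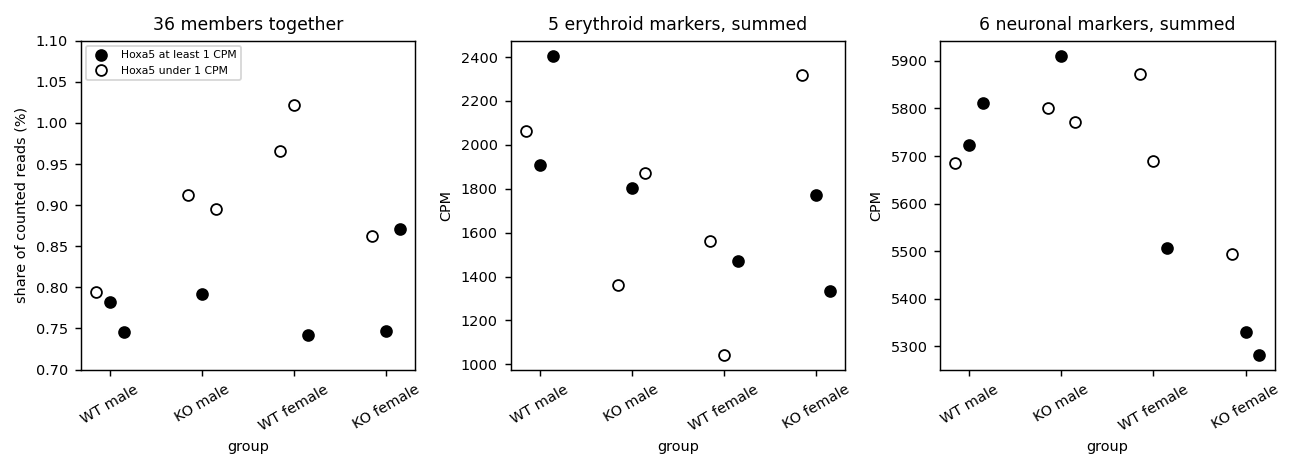
Share of counted reads taken by the 36 genes together (left, vertical axis from 0.7 to 1.1%), and summed CPM of the 5 erythroid (middle) and 6 neuronal markers (right), by group, with 1 point per library in the order of the replicate numbers. Filled points have at least 1 CPM of Hoxa5 and open points less, and the axes do not start at 0. The share is highest in WT female 1 and 2, where the erythroid sum is 1561 and 1045 CPM. It is lowest in WT female 3, where that sum is 1469 CPM.

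Partners of these proteins in the same complexes and other regulators linked to autism had smaller median changes than the 36 genes within each sex, though not with the sexes combined. Of 137 such genes in 7 lists, 1 fell over both sexes, none rose and the others were not called by edgeR, and in males and in females alone none was called. Before adjustment p was under 0.05 for 36 higher and 5 lower levels in KO males, for 5 higher and 4 lower levels in KO females, and for 15 higher and 4 lower levels with the sexes combined. Taking both directions together these are 29.9, 6.57 and 13.9% of the listed genes, against 11.9, 7.48 and 13.7% of all genes. DESeq2 called Chd4, Zfp462, Tcf7l2 and Satb1 in males (1 lower and 3 higher) and none in females. Over both sexes it called Satb1, Stag2 and Nr3c2 (2 lower and 1 higher). These genes are named here after their values were seen. Over all genes DESeq2 called 2.97% lower and 1.1% higher with the sexes combined, and in males the shares are those given with Kdm5b. The median change of the 137 genes was 0.13 in males, with 119 above 0, and -0.026 in females, with 81 below 0. With the sexes combined it was 0.045, against 0.037 for the 36 genes, and ranged from 0.010 to 0.093 by list. Within each sex it was, by list, 0.12 in males and -0.026 in females for the 23 other BAF and PBAF subunits, 0.13 in males and -0.038 in females for the 16 other genes of the MLL/COMPASS methyltransferase complexes, and 0.12 in males and 0.043 in females for the 19 other CHD, NuRD and HP1 genes. For the 17 other acetyltransferases, deacetylases and co-repressors it was 0.084 in males and 0.0064 in females, for the 16 genes of the Mediator kinase module and cohesin 0.15 in males and -0.0051 in females, and for the 17 partners of Asxl3, Mbd5, Auts2, Wac and Cul3 0.086 in males and 0.00084 in females. The 30 other transcription regulators linked to autism had medians of 0.16 in males and -0.12 in females, against 0.18 and -0.12 for the 36 genes. The gene that fell was Satb1, a chromatin organizer of interneurons and cortical neurons, which was at 90.9 to 105 CPM in the 6 WT and 70.3 to 85.4 CPM in the 6 KO libraries, without overlap. Its log2 change was -0.30 (SE 0.0526, adjusted p = 0.00872 in edgeR), and -0.28 (adjusted p = 0.449) among the Hoxa5-low libraries alone, where it was not called.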

How the data were processed

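The authors cut 150 bp reads to 75 bp, trimmed adapters with cutadapt 2.6, aligned the reads to GRCm38 (mm10) with HISAT2 2.1.0 and quantified Ensembl genes with StringTie 2.0.6. What they deposited was a table per sex of read counts per gene, whole numbers that StringTie's script derives from coverage, without normalization. The paper names alternative rRNA depletion kits and alternative sequencers for these libraries. The strand setting, the removal of duplicate reads and the kit and sequencer of each library are not given in the sources used here. The counts were tested with edgeR 4.0.16 in R 4.3.3 (filterByExpr, TMM, robust quasi-likelihood F test) within each sex, as the study did with edgeR, over both sexes with sex as a term, and for the interaction. The study states a false discovery rate of 0.05 and neither the kind of test nor a filter. All 36 genes passed the filter in every comparison.

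The 36 genes, the lists and the alternatives were chosen with earlier results of these data known, so no list was tested as a set. Each gene was described by its role. Every library's value was to be given for genes that were called or without overlap in both sexes and for the highest and lowest level per kb, and other genes shown in that way were chosen after their values were seen. Of the listed partners, those called over both sexes were to be named. Exon lengths and positions came from GENCODE M21 (GRCm38). The alternatives were RLE normalization, DESeq2 1.42.0, other filters, a spread estimated from all samples, replicate number as a block, a Hox covariate, the Hoxa5-low libraries, and each library left out. The tests were tried on simulated counts with known changes. No replicates agreed within sampling noise (chi-square per degree of freedom at least 25.0), so none was counted as a copy.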

Additional observations from a re-analysis of the deposited data

How the results depend on the processing

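DESeq2 called 1 of the 36 genes higher in males, Kdm5b, where edgeR called 0. Without each library in turn 0 to 2 genes were called lower in females, the 2 being Kmt2a and Asxl3 without WT female 3. Among the 6 Hoxa5-low libraries alone, a fit with fewer samples, 0 genes were called lower rather than 1. The call of Mkx over both sexes held in every other setting, with log2 fold changes of -1.21 to -1.08 and adjusted p of 0.0028 to 0.0106 in edgeR without each library in turn. The median in females was 0.044 with the Hox covariate against -0.12 without it, and the cause was not tested. Without each library in turn the median ranged from 0.14 to 0.23 in males, from -0.25 to -0.036 in females and from 0.0034 to 0.097 with the sexes combined. Of 1619 log2 fold changes of single genes under an alternative, 118 changed sign, all of genes that were not called. The labels do not say whether equal replicate numbers pair the samples. Correlations of same-numbered deviations were -0.052 to 0.20 and those of other numbers -0.22 to 0.21. With 3 samples per group these values cannot decide whether the samples are paired. With the replicate number as a block the medians were 0.18 (males), -0.12 (females) and 0.043 (both), Mkx remained the 1 called gene of the 36 (adjusted p = 0.0178 in edgeR), and Satb1 missed the threshold (adjusted p = 0.0501 in edgeR). Over all genes, lower and higher calls in males numbered 63 and 23 in the main edgeR fit. The study reported more in each direction in males at the same false discovery rate. The calls in males numbered 361 and 122 with DESeq2, 219 and 70 with the block, and 11 and 9 with the Hox covariate. Without each library in turn they numbered 11 to 88 and 9 to 25. In females the calls numbered 1 and 2 in the main edgeR fit, 129 and 50 with DESeq2, and 28 and 9 with the spread of all 12 libraries. They numbered 0 and 0 with the block or the Hox covariate, and 0 to 34 and 0 to 23 without each library in turn. With the sexes combined the calls numbered 300 and 74 in the main edgeR fit, 587 and 218 with DESeq2, and 31 and 6 in the Hoxa5-low libraries. They numbered 162 to 315 and 38 to 80 without each library in turn. Depth limits Mkx, with at most 84 reads per library, more than the other 35 genes.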
